A study of Mus musculus with 2 samples.

Results

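The 40 genes described here make heparan sulfate and chondroitin sulfate, edit the finished chains, or encode the cell-surface proteins that carry them. They were listed by name as genes of this pathway and were looked up by gene identifier among 43346 gene rows. All 40 were found. RNA was measured by total RNA-seq in mouse embryonic facial prominence, the outgrowths that form the face, at embryonic day 13.5. The 2 libraries form 1 group, so no condition is compared with another. Both came from embryos of strain B6NCrl with no allele or treatment named, each a biosample of pooled male and female embryos, and each was made from 10 ng of RNA longer than 200 nt extracted with the mirVana kit. The labels number the biosamples as separate biological replicates but give both the same donor identifier, and no label or header used here states how many embryos each pool held.

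Heparan sulfate and chondroitin sulfate are long sugar chains built in the Golgi on serines of proteoglycan core proteins. A shared linker of xylose, galactoses and glucuronic acid is made first, one set of polymerases then extends the chain, and sulfotransferases decorate it in patterns that set which proteins can bind. Heparan sulfate on glypicans and syndecans binds fibroblast growth factors, hedgehog, Wnt and bone morphogenetic proteins, all of which act in the growing face, and chondroitin sulfate is the main chain of cartilage matrix.

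Levels are given as transcripts per 1000000 (TPM), a length-corrected share of all transcripts as deposited. Replicate 1 held 30451502 expected counts and replicate 2 held 23777465, of which 28542452 and 22719352 fell on gene rows. Spike-in RNA of known sequence took 13.4% of the TPM in replicate 1 and 9.68% in replicate 2, so deposited TPM values of genes run somewhat higher in replicate 2. All 6 markers of cranial mesenchyme and all 5 of surface epithelium reached 1 TPM in each library, where 60.9% of protein-coding gene rows did. Every listed marker of cartilage, bone, skeletal muscle, neurons, endothelium, macrophages and erythroid cells did so too. Reaching that threshold therefore does not tell these tissues apart. Summed TPM of 8 liver markers was 4.15 in replicate 1 and 278 in replicate 2, with Fgb listed at 0 in replicate 1, and that of 6 heart markers was 6.86 and 34.3. Both sums were higher in replicate 2, and their part in the values below was not tested. In bulk tissue, fewer cells of a type and less RNA per cell cannot be told apart.

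RNA of nearly the whole pathway was present. Of the 40 genes, 37 reached 1 TPM in both libraries, where 60.9% of 21474 protein-coding gene rows did. Ndst4 and Hs6st3 stayed under 1 TPM in both, and Gpc5 lay at the threshold. The median over the 40 genes of the mean TPM was 18.5, beside 4.68 over all protein-coding rows and 18.9 over those detected. Of the 40, 20 lay above that detected median (50% of detected protein-coding genes do), and Gpc3, Sdc1, Ugdh and Sulf2 lay above the 90th percentile of 109 TPM (9.99% do). The pathway was therefore spread over the range of expressed genes, from a mean of 0.14 TPM for Ndst4 to 572 for Gpc3.

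**Figure D1:**
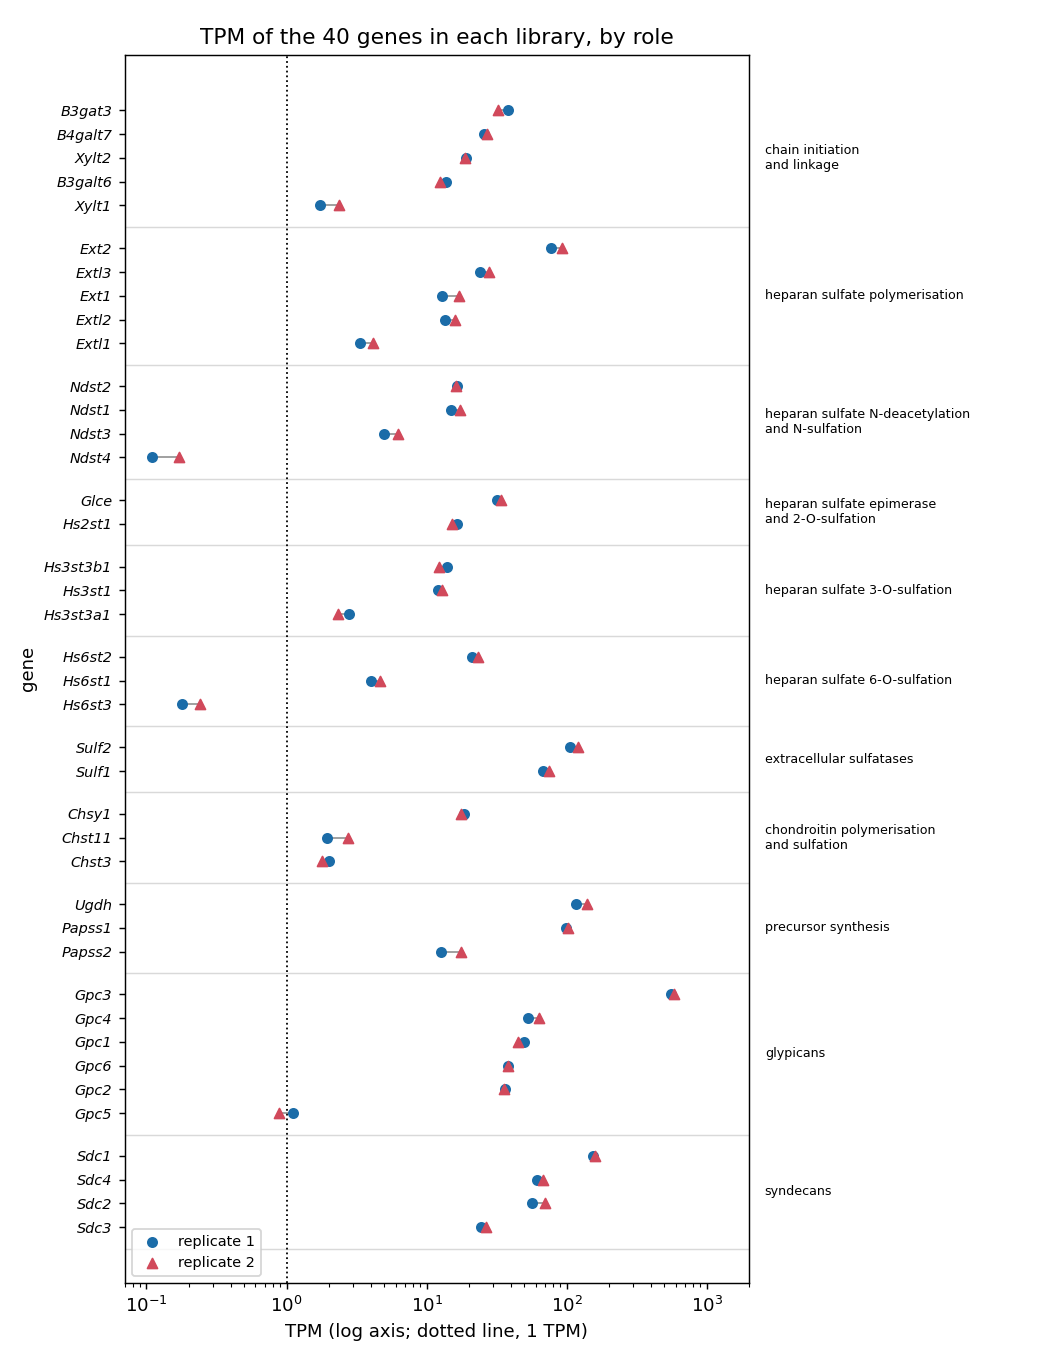
TPM of each of the 40 genes on a log axis, grouped by role, with a circle for replicate 1, a triangle for replicate 2 and a grey line between them. Gpc3 lies highest at 557 and 587 TPM, and only Ndst4, Hs6st3 and, in replicate 2, Gpc5 lie left of the dotted line at 1 TPM.

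Within each role, all pairs of genes were compared. A pair was counted as apart where the deposited credibility intervals of TPM did not overlap in either library, the same gene was higher in both, and the ranges over the libraries did not overlap. By that rule 54 of 61 pairs were apart. Down the order of all 40 genes, neighbours lay closer, and 11 of 39 neighbouring pairs were apart. Those 11 steps in the order fell just below Gpc3, Sdc1, Sulf2, Papss1, Ext2, Gpc1, Glce, Hs3st1, Ndst3, Chst3 and Gpc5, and the other neighbours missed the rule. Ugdh over Sulf2, Sulf1 over Sdc4 and Sdc2 over Gpc4 missed it only because their ranges over the libraries overlapped. Within each library the first of each pair was higher, with intervals that did not overlap. The intervals cover estimation from the reads, and the spread over 2 libraries holds biosample and library preparation together.

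Glypicans are core proteins held to the outer membrane by a lipid anchor, and Gpc3, which restrains growth and hedgehog signalling, dominated them. Gpc3 was at 557 TPM in replicate 1 and 587 in replicate 2, a mean of 572 ± 21.5 (SD, n = 2), from 24782 and 19988 expected counts. It stood above 99.2% of protein-coding rows and made up 75.8% and 76.3% of the summed glypican TPM. Gpc3 was the highest of the 40 genes in both libraries and was apart from every other glypican. An antisense gene that overlaps it, A630012P03Rik, was at 3.38 and 2.28 TPM.

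Gpc4, a regulator of Wnt and bone morphogenetic protein signalling, was at 52.8 and 63.2 TPM, so Gpc3 exceeded it by 10.6-fold and 9.30-fold. Gpc1, which carries mainly heparan sulfate and is prominent in nervous tissue and vessels, was at 49.7 and 45.0 TPM. These ranges are separate, but the pair missed the rule because their intervals overlapped in replicate 1. Gpc6, mutated in a human skeletal dysplasia, was at 37.9 TPM in both libraries, and Gpc2, best known from developing neurons, was at 36.4 and 35.8. Gpc6 and Gpc2 were not apart, but on protein-coding transcripts alone Gpc6 was at 26.3 TPM in both libraries and Gpc2 at 17.1 and 16.7, ranges that do not overlap. The log2 ratio of Gpc1 over Gpc2 was 0.39 ± 0.08 (SD, n = 2) and became 1.41 on that scale. Gpc5, the remaining family member, was at 1.11 and 0.89 TPM from 44 and 32 counts. Of the 15 glypican pairs, 13 were apart.

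Gpc3 and Gpc4 are neighbours on the X chromosome, and Hs6st2, a heparan sulfate 6-O-sulfotransferase, lies near them on the same strand. In GRCm38, Gpc4 spans chrX:52053021-52165252 and Gpc3 chrX:52272426-52613950, with 107 kb and no annotated gene between them. Hs6st2 spans chrX:51387212-51681856, with 371 kb and 2 protein-coding genes between it and Gpc4. Gpc5 and Gpc6 lie on the plus strand of chromosome 14, 400.1 kb apart with 1 annotated gene, not protein-coding, between them. Gpc6 exceeded Gpc5 by 34.1-fold and 42.5-fold, or 5.25 ± 0.23 in log2 (SD, n = 2), and by 6.56 in log2 with counts not divided by length. In both neighbouring pairs the levels lay far apart. Gpc5 and Gpc6 are also the longest of the 40 genes, spanning 1433 kb and 1051 kb.

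Promoters of Gpc3, Gpc4, Gpc5 and Hs6st2 are shown so that their start regions can be compared. No RefSeq stretch was found for Gpc6, so Gpc5 cannot be set beside its own neighbour. Each stretch is the 250 bases before a RefSeq start site (GRCm38.p6), written 5′ to 3′ on the gene's strand, with every CpG in capitals. They are Gpc3 at chrX:52613975-52614224 on the minus strand, Gpc4 at chrX:52164924-52165173 on the minus strand, Gpc5 at chr14:115091965-115092214 on the plus strand, and, for Hs6st2, the upstream start at chrX:51681603-51681852 and the downstream start at chrX:51680478-51680727, both on the minus strand. RefSeq and GENCODE starts differ. The Gpc4 stretch lies inside the GENCODE span given above, 329 nt from the start of Gpc4-201, its single transcript here, and the upstream Hs6st2 stretch lies inside the GENCODE span of Hs6st2, 101 nt from the start of Hs6st2-201. The downstream Hs6st2 stretch lies inside that span too, and its nearest transcript, Hs6st2-205, was at 0 and 1.14 TPM. These Gpc4 and Hs6st2 stretches thus lie within the gene as annotated there, not upstream of it.
Gpc3: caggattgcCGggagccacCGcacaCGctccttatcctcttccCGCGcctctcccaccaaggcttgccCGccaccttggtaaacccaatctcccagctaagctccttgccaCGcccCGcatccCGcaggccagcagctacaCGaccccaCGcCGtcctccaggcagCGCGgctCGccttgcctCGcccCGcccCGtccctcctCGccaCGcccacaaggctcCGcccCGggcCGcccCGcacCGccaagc
Gpc4: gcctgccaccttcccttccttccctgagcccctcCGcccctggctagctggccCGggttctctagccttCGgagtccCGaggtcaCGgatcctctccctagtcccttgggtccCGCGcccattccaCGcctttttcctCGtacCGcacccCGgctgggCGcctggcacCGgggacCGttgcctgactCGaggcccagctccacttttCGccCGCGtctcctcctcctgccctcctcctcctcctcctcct
Gpc5: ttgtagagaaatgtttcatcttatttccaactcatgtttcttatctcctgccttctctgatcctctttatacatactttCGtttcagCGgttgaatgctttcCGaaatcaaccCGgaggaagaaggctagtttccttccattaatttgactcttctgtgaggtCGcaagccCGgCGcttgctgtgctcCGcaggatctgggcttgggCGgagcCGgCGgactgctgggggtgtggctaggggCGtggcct
Hs6st2 upstream start: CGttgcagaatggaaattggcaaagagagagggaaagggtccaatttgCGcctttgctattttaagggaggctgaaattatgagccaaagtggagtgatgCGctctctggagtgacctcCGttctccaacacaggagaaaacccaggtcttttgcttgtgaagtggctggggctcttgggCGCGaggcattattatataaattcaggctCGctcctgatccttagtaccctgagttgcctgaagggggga
Hs6st2 downstream start: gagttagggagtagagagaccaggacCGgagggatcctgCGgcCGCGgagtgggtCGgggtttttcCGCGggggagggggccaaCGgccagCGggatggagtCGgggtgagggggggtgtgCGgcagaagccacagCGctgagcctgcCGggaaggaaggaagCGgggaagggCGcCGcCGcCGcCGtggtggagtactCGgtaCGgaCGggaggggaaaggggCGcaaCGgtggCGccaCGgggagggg

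The Gpc3 stretch has 25 CpG and 71.6% G or C, that of Gpc4 has 18 and 68.4%, and that of Gpc5 has 12 and 51.2%. Each of them holds the letters GGGCGG on either strand, the core of the GC box that Sp1-type factors bind. So the lowest glypican and the highest one both carry those letters, while TATAAA on either strand was in the Gpc5 stretch and in neither of the others. The upstream start of Hs6st2 has 7 CpG and holds TATAAA, while the downstream start has 26 CpG and no such match. RefSeq promoters were used for 31 of the 40 genes, 37 stretches in all. Chromosome 18, which holds Ndst1, was left out of these, but not out of the sets compared with them. GGGCGG was in 59.5% of the 37, against 32.7% of all 32851 RefSeq promoters and 57.7% of the 13162 at detected protein-coding genes. TATAAA on either strand was in 8.11%, against 12.4% and 6.40%. A G or C share of at least 50% together with an observed-to-expected CpG ratio of at least 0.6 was met by 64.9%, against 31.0% and 59.8%. The pathway promoters were thus close to those at detected protein-coding genes in all 3 measures. The 37 include stretches of Gpc5 and Hs6st3, which did not reach 1 TPM in both libraries. Both Ndst3 starts lay nearest to transcripts at 0 TPM. A Papss2 start lay 24290 nt, and the Ndst2 start 4235 nt, from the nearest annotated transcript start. A match is a description of letters and shows no binding.

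Syndecans are the transmembrane core proteins, and all 4 were expressed. Sdc1, the main syndecan of epithelia, was at 156 and 159.6 TPM, a mean of 158 ± 2.84 (SD, n = 2), and was second of the 40 genes. Sdc4, found at focal adhesions, was at 61.2 and 67.5 TPM, and Sdc2, common in mesenchyme, was at 56.8 and 69.8. Those genes could not be separated, their order changing between the libraries. Sdc3, known from neurons and muscle precursors, was lowest at 24.6 and 26.6 TPM. It overlaps Gm26716, an antisense gene at 10.8 and 8.45 TPM, so the strand limit stated below for Ext2 holds for it. Sdc1 exceeded Sdc4 by 2.54-fold and 2.36-fold and made up 52.2% and 49.3% of syndecan TPM. Together the syndecans summed to 298 and 323 TPM, and the glypicans to 735 and 770.2.

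**Figure D2:**
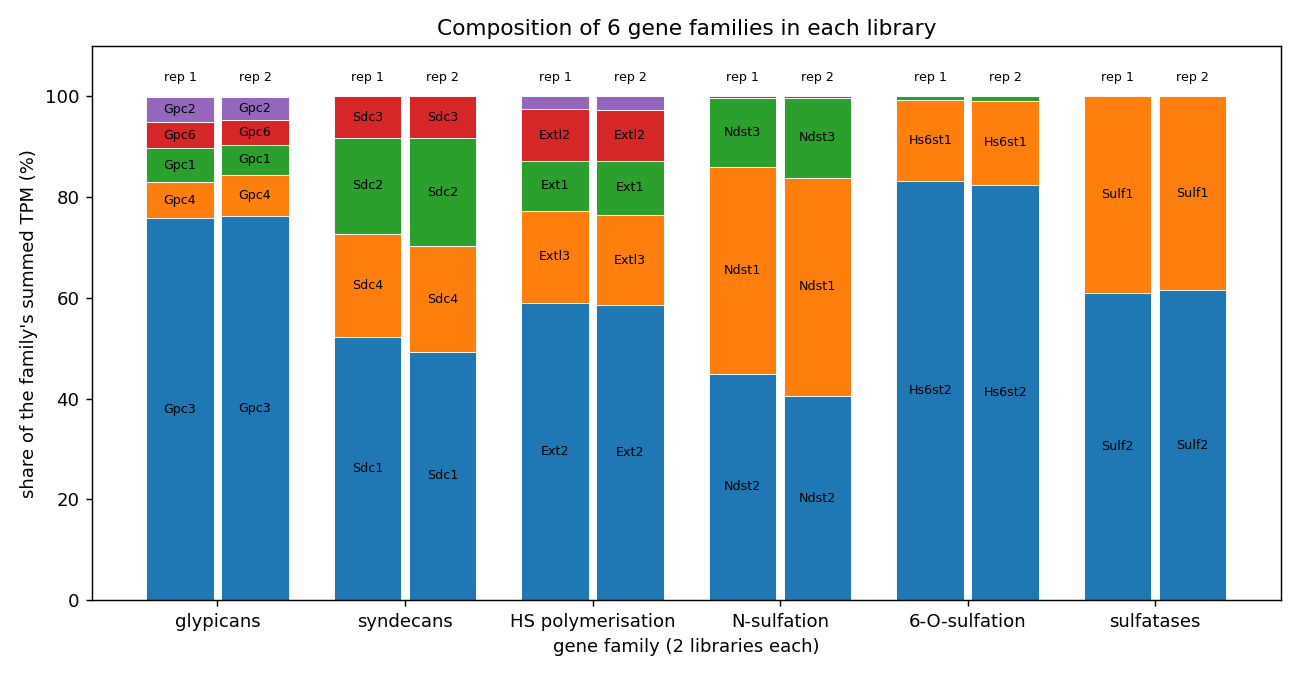
Stacked bars of each gene's share, in percent, of the summed TPM of its family, for 6 families with replicate 1 at left and replicate 2 at right. Gpc3 takes 75.8% and 76.3% of the glypicans, Hs6st2 takes 83.2% and 82.5% of the 6-O-sulfotransferases, and the N-sulfation family is divided mainly between Ndst1 and Ndst2.

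Chain synthesis starts with a xylosyltransferase, and here Xylt2 was the more abundant of the isoenzymes. Xylt2 was at 19.2 and 18.9 TPM and Xylt1 at 1.74 and 2.38, a ratio of 11.1-fold and 7.94-fold, or 3.23 ± 0.34 in log2 (SD, n = 2). The linker is then completed by B4galt7, which adds the first galactose, B3galt6, which adds the next, and B3gat3, which adds glucuronic acid. B4galt7 was at 25.8 and 27.0 TPM, B3galt6 at 13.8 and 12.5, and B3gat3 at 38.0 and 32.4. All 10 linker pairs were apart, with B3gat3 highest and Xylt1 lowest. These genes make the linker of both chain types, so their RNA does not tell the types apart.

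The heparan sulfate polymerase is a complex of the Ext1 and Ext2 proteins, whose human counterparts are mutated in multiple exostoses. Ext2 was at 77.6 and 92.0 TPM, a mean of 84.8 ± 10.2 (SD, n = 2), and Ext1 at 12.9 and 17.0. Ext2 RNA was thus 6.0-fold and 5.42-fold that of its partner, 2.51 ± 0.10 in log2 (SD, n = 2). With protein-coding transcripts alone the log2 ratio was 4.04, since much of the Ext1 TPM lay on other forms, described with the transcripts. Ext2 overlaps Alx4, a gene on the opposite strand at 25.7 and 22.5 TPM. No source used here states whether the reads keep strand, so reads of such overlaps cannot be assigned with certainty.

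Of the Ext-like genes, Extl3, which starts the heparan sulfate chain, was at 24.1 and 28.1 TPM. Extl2, a related N-acetylhexosaminyltransferase, was at 13.5 and 16.0, and Extl1, which can add N-acetylglucosamine to growing chains, was at 3.34 and 4.15. Extl3 exceeded Ext1 by 1.86-fold and 1.66-fold, 0.81 ± 0.12 in log2 (SD, n = 2), which became 2.37 with protein-coding transcripts alone and 1.62 with counts not divided by length. Ext1 and Extl2 were not apart, and the other 9 pairs of the group were. On protein-coding transcripts alone, however, Ext1 was at 4.77 and 5.34 TPM and Extl2 at 13.4 and 16.0, ranges that do not overlap.

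N-deacetylase/N-sulfotransferases make the first modification of the heparan sulfate chain, on which most later ones depend. Ndst2, the form that mast cells need for heparin, was at 16.4 and 16.1 TPM, and Ndst1, the main form in most tissues, was at 15.0 and 17.3. Their order changed between the libraries and they were not apart. Ndst3 was at 4.98 and 6.26 TPM, and Ndst4 was at 0.11 and 0.17 from 9 and 10 counts. These counts exceed the floor of 3 that a count of 0 would allow. Ndst1 overlaps Rps14, a ribosomal protein gene at 1624 and 1609 TPM on the opposite strand, so its value carries the strand limit stated for Ext2.

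Glce, the epimerase that turns glucuronic into iduronic acid, was at 32.0 and 34.1 TPM. Hs2st1, which sulfates that iduronic acid, was at 16.4 and 15.3, so Glce was 1.95-fold and 2.24-fold higher. Unlike the N-, 3-O- and 6-O-sulfation steps, each of these is encoded by a single gene, and both were detected.

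Of the 3-O-sulfotransferases, which make rare sites such as the one for antithrombin, Hs3st3b1 was at 13.9 and 12.3 TPM and Hs3st1, the antithrombin-site enzyme, at 12.1 and 13.0. These were not apart. Hs3st3a1 was lower, at 2.80 and 2.32 TPM. It overlaps F930015N05Rik, a gene on the opposite strand at 1.8 and 0.76 TPM, so the strand limit stated for Ext2 holds for it. Hs3st3a1 and Hs3st3b1 are close paralogs on chromosome 11, 513 kb apart on opposite strands, and both had expected counts that are not whole, so reads were divided between features and the split is uncertain.

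Many growth factor complexes need 6-O-sulfates, and Hs6st2 had the most RNA of the 3 genes that add them. It was at 20.95 and 23.1 TPM, Hs6st1 at 4.04 and 4.68, and Hs6st3 at 0.18 and 0.24 from 5 counts in each library. Hs6st2 exceeded Hs6st1 by 5.19-fold and 4.94-fold. All 3 pairs were apart. Hs6st1 overlaps Gm37335, an antisense gene at 6.94 and 7.04 TPM, which is above Hs6st1 itself, so the same strand limit holds for it.

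The extracellular sulfatases remove 6-O-sulfates from finished chains at the cell surface, and both were abundant. Sulf2 was at 106 and 121 TPM, a mean of 113 ± 10.9 (SD, n = 2), and Sulf1 at 67.3 and 75.5. Sulf2 was 1.57-fold and 1.60-fold higher, 0.66 ± 0.02 in log2 (SD, n = 2). Their RNA summed to 173 and 196 TPM, and that of the 3 genes adding 6-O-sulfate to 25.2 and 28.0. RNA levels say nothing of the enzymes' activity. The end of Sulf2 overlaps Ncoa3, at 11.0 TPM in both libraries on the opposite strand.

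Among the chondroitin genes, Chsy1, a chondroitin polymerase, was at 18.4 and 17.5 TPM. Chst11, which sulfates chondroitin at the 4-O position and is needed in the growth plate, was at 1.94 and 2.76. Chst3, which sulfates the 6-O position, was at 2.00 and 1.79. Chst11 and Chst3 were not apart, and Chsy1 was higher than either.

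Of the genes that supply building blocks, Ugdh and Papss1 were high and Papss2 was not. Ugdh, which makes the UDP-glucuronic acid that both chain types need, was at 117 and 140.4 TPM, a mean of 129 ± 16.9 (SD, n = 2). The PAPS synthases make the sulfate donor of every sulfotransferase, and Papss1 was at 98.3 and 102 TPM against 12.6 and 17.7 for Papss2, the form that cartilage needs. Papss1 was 7.80-fold and 5.74-fold higher, 2.74 ± 0.31 in log2 (SD, n = 2). Ugdh was above Papss1 in both libraries, but with protein-coding transcripts alone the order turned, to -0.21 in log2.

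Transcript tables showed which RNA forms made up these levels. Of the 40 genes, 13 had a single transcript in the deposited tables and 27 had several. In all 25 detected genes with several transcripts, the same transcript led in both libraries. The median share of TPM on protein-coding transcripts was 99.3% over the 37 detected genes, beside 97.8% over detected protein-coding genes. Averaged over the libraries, Ext1 and Gpc2 had less than 50% of their TPM on protein-coding transcripts, as did 9.25% of detected protein-coding genes.

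Ext1 was led by Ext1-203, annotated as a target of nonsense-mediated decay, a pathway that destroys messages with an early stop. It took 47.8% and 35.7% of Ext1 TPM, the full-length coding Ext1-201 took 36.9% and 31.4%, and the intron-retaining Ext1-204 took 15.2% and 30.7%. Ext1-201 itself was at 4.77 and 5.34 TPM. Ext1-203 and Ext1-204 are 1554 and 871 nt long against 7663 nt for Ext1-201, and how reads were divided among them was not tested. Ext1-203 was the leading form of its gene, and a leading form that is not protein-coding occurred in 9.66% of detected protein-coding genes with several transcripts.

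Gpc2 carried its RNA on the coding Gpc2-205, at 46.9% and 46.8%, and on intron-retaining forms, at 44.2% and 41.8%. Gpc6 had an intron-retaining form, Gpc6-203, at 30.5% and 30.6%. In Ndst3 a form annotated for nonsense-mediated decay, Ndst3-205, took 29.5% and 22.8%. Xylt1 had 31.6% and 50.8% on intron-retaining forms, at a level near 1 TPM where few reads set the share. Of Ugdh TPM, 31.1% and 30.5% lay on transcripts of the deposited annotation that are not in the later release used for names, which accounts for the turn in its order against Papss1.

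Gpc3 and Sdc1, the highest core proteins, had nearly all of their TPM on protein-coding forms. Gpc3-201 made up 95.9% and 97.8% of Gpc3, and all of its TPM was on protein-coding forms. Sdc1 was divided between the coding Sdc1-201, at 65.4% and 64.5%, and the coding Sdc1-205, at 33.6% and 34.7%. The sulfatases were divided among several forms. Sulf2-202 took 51.0% and 49.0% of Sulf2, and Sulf1-202 took 38.6% and 41.3% of Sulf1. Intron-retaining forms took 7.96% and 9.12% of Sulf1. These shares moved little between the libraries.

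**Figure D3:**
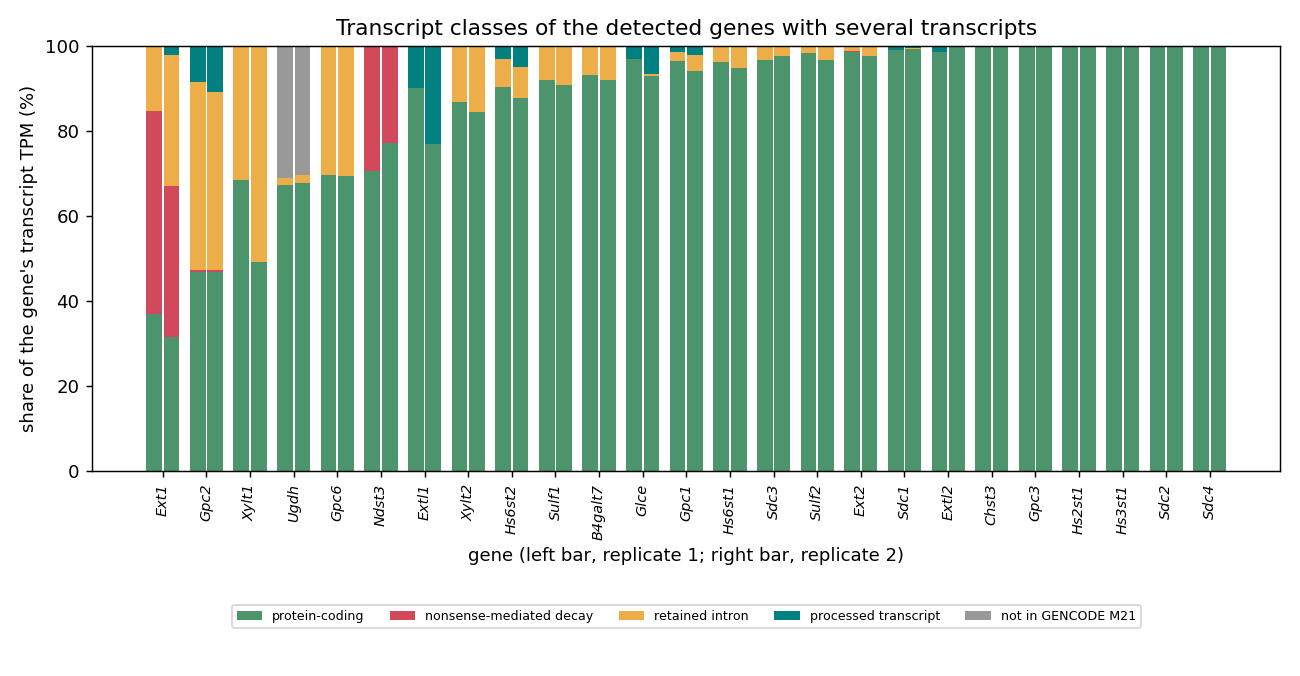
Stacked bars of the share of each gene's transcript TPM, in percent, by annotated transcript class, for the 25 detected genes with several transcripts, with replicate 1 at left and replicate 2 at right. Ext1 and Gpc2, at the left end, lie under 50% protein-coding in both libraries, and the grey part of Ugdh marks transcripts that are not in GENCODE M21.

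The libraries were then compared gene by gene, as replicate 2 over replicate 1 of expected counts after edgeR TMM scaling. This is a ratio of 1 library to 1 library with no replicate check, and its 95% intervals are exact Clopper-Pearson intervals of counting error only. Of the 40 genes, 36 had a mean expected count of at least 100, and none of them passed 1.5-fold, where 3.18% of 12730 gene rows with that count did, 2.4% with the higher value in replicate 2 and 0.786% with the lower. With scaling by spike-in totals, 16 of the 36 passed, beside 36.7% of all rows. The median absolute log2 ratio was 0.12 over the 36 genes and 0.11 over all rows. The median signed ratio of all rows was -0.03, 0.01 by totals over gene rows and 0.53 by spike-in totals. Intervals excluded 1 in 22 of the 36 genes (44.2% of all rows), lying wholly above 1 in 11 (16.9%) and wholly below 1 in 11 (27.3%). By size these ratios were near those of all rows, while intervals excluding 1 took a larger share of the 36 genes than of all rows, and an interval narrows as counts rise.

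Chst11 had the highest ratio, with 223 and 242 counts, 1.33-fold (1.10 to 1.60), and Papss2 followed with 943 and 1010 counts, 1.31-fold (1.20 to 1.43). Sdc2 was at 1.15-fold, Ugdh at 1.13-fold and Ext2 at 1.12-fold. These ratios stayed above 1 under every scaling tried. On the opposite strand, Chst11 overlaps the antisense gene 1700025N21Rik, at 0.56 and 0.95 TPM, and the small nuclear RNA gene Gm23122, at 11.8 and 0. The strand limit stated for Ext2 therefore holds for Chst11 and its ratio. Over the 7 cartilage markers, all were higher in replicate 2, 6 with an interval above 1, with a summed level of 595 and 798 TPM and a median log2 ratio of 0.25. All 5 neuron markers were higher as well, 4 with an interval above 1, with a summed level of 182 and 224 TPM. Both lists kept this direction under every scaling tried. The part of either in the ratios of Chst11 and Papss2 was not tested, nor was that of the liver and heart RNA.

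At the other end, Hs3st3a1 was at 0.774-fold (0.623 to 0.957), B3gat3 at 0.797-fold, Hs3st3b1 at 0.822-fold and Gpc1 at 0.829-fold. These ratios lay below 1 with TMM, DESeq2 size factors and gene totals, but above 1 with spike-in totals, where all 36 genes did. All 5 bone markers were lower in replicate 2, with summed TPM of 1385 and 1133. Of the 5 skeletal muscle markers 4 were lower, but the summed TPM of the list was 138 and 180.1, with Actc1, the exception, at 86.7 and 141.9. With spike-in totals 1 of 5 bone markers and 2 of 5 muscle markers were lower. The part of these lists was not tested either. Gpc3 was at 0.987-fold (0.969 to 1.01), an interval that holds 1.

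**Figure D4:**
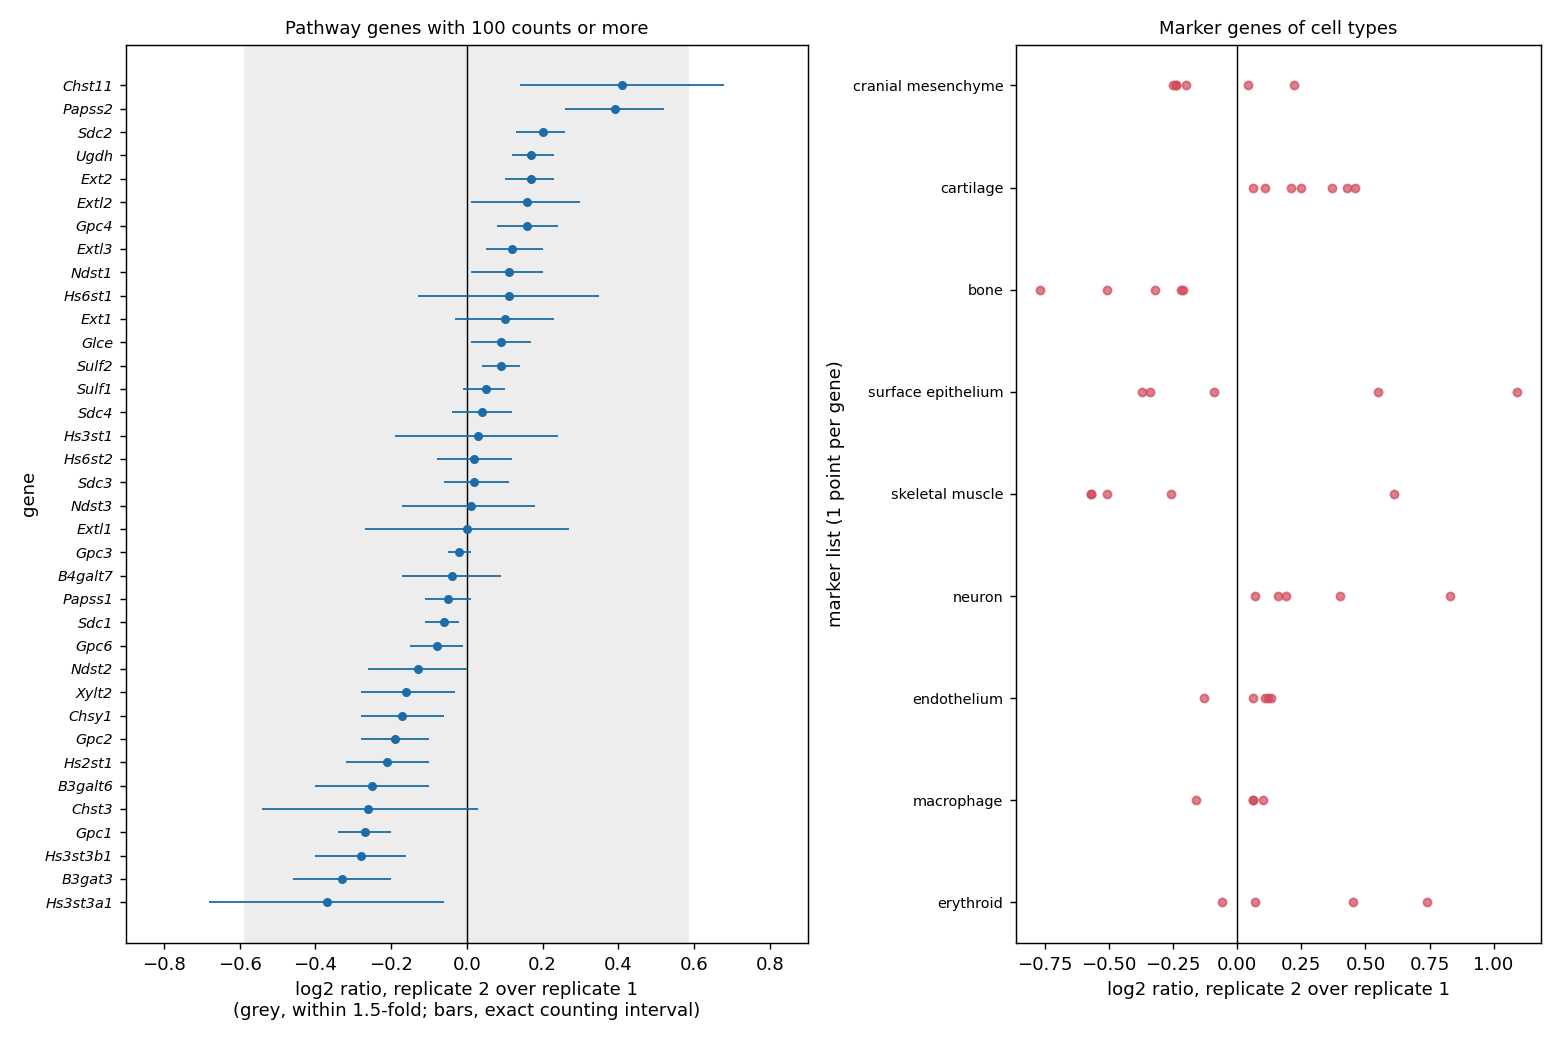
Left, log2 ratio of expected counts, replicate 2 over replicate 1, after TMM scaling, for the 36 genes with a mean count of at least 100, with bars for the exact counting interval and grey for ratios within 1.5-fold. Right, the same ratio for markers of cell types other than liver and heart, 1 point per gene. All 36 points at left lie within the grey band, and all 7 cartilage points at right lie above 0.

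Other genes of the pathway were looked up by role. Of 53, 50 reached 1 TPM in both libraries, where 60.9% of protein-coding gene rows did, and Hs3st2, Hs3st4 and Bcan stayed under 1 TPM in both. The median over the 53 was 13.9 TPM, beside 4.68 over all protein-coding rows and 18.9 over those detected. Among the 47 with a mean count of at least 100, 1 passed 1.5-fold, Ncan, a brain chondroitin sulfate proteoglycan, at 1.53 and 1.07 TPM and 0.654-fold. That share was near the background of 3.18%.

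All 13 other chondroitin and dermatan sulfate enzymes were detected. Chst14, the dermatan 4-O-sulfotransferase, was at 41.3 and 37.5 TPM, and Dse, the dermatan sulfate epimerase, at 29.2 and 29.6. Chpf, a partner of chondroitin synthase, was at 23.8 and 23.6, and Chst15, which makes doubly sulfated chondroitin, at 21.5 and 22.2. Each of these lay above Chsy1, Chst3 and Chst11 in both libraries. Of 4 further 3-O-sulfotransferases 2 were detected, Hs3st6 at 15.8 and 13.4 TPM and Hs3st5 at 4.22 and 4.17.

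The linkage regulators Fam20b, a xylose kinase, and Pxylp1, a xylose phosphatase, were at 18.1 TPM in both libraries and at 25.3 and 22.4. All 8 supply genes were detected, led by Slc35b2, a Golgi PAPS transporter, at 58.1 and 52.9 TPM and Ugp2, which makes UDP-glucose, at 55.0 and 61.0. Of 14 other core proteins 13 were detected. Dcn, a small leucine-rich proteoglycan, was at 151 and 142 TPM, Vcan, the large chondroitin sulfate proteoglycan of embryonic mesenchyme, at 128 and 136, and Bgn, a relative of Dcn, at 92.1 and 120.5. Gpc3 was higher than each of them. All 12 genes of chain breakdown and glypican release were detected, among them the lysosomal enzymes Gusb at 32.2 and 29.4 TPM and Hgsnat at 28.9 and 31.4.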

How the data were processed

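Total RNA-seq of 2 biosamples of mouse facial prominence gave a gene table and a transcript table per library. Per the file headers, the authors deposited expected counts (estimated reads per feature, not necessarily whole), TPM, FPKM, posterior mean values and credibility bounds of TPM and FPKM, a signal in the same unit whose level the headers do not state. Bounds lie around the posterior mean, so a deposited TPM can lie outside its own interval. Assembly mm10 and GENCODE M4 are named in the deposited notes. Aligner and quantifier are not given in the sources used here. Deposited TPM totals 1000000 over all rows, spike-in rows included.

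Names, transcript classes and positions were taken from GENCODE M21 (GRCm38, the same assembly) by identifier without version, for 42462 of 43346 gene rows. Models can differ between releases, and M4 transcripts of Gpc2 and Sdc2 include some that M21 gives to other genes. Rows that name no gene stayed out of library sizes. These were 96 spike-ins (6.27% and 4.45% of expected counts), phiX (0%) and 26248 number-only rows (0.000171% and 0.000151%).

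Ratios between libraries used rounded expected counts, edgeR 4.0.16 (TMM factors 0.987 and 1.013) in R 4.3.3 and a prior count of 1. On simulated counts only the recovery of a median ratio was checked, not the intervals, the count past 1.5-fold or spike-in scaling. DESeq2 1.42.0 size factors were an alternative. Intervals came from scipy 1.17.1. Because the reads carry no stated molecular identifiers, they cannot be taken as independent molecules, and intervals and the floor of 3 counts (0.105 and 0.132 counts per 1000000) cover counting error only. Replicates were 1 group, and no p-value was computed. Every member was named with its values, and from each list of other pathway genes the 2 to 4 highest by mean TPM and those under 1 TPM in both libraries. Not all of these are printed. The members and lists were chosen with earlier results of these data known. Protein sequences were not used here.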

Additional observations from a re-analysis of the deposited data

How the results depend on the processing

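No paired analysis was possible because both libraries belong to 1 group. The count of detected genes was 30 to 38 of 40 over thresholds of 0.5 and 5 TPM, posterior mean TPM, FPKM, rescaled TPM and single libraries, and 39 to 50 of 53 for other pathway genes over those thresholds and single libraries. The median TPM of the 40 genes was 20.9 after rescaling over gene rows, 12.7 as FPKM and 22.0 over the detected genes, and 18.3 to 18.8 in single libraries. The count past 1.5-fold was 16 with spike-in totals and 0 with DESeq2 size factors, gene totals, no count filter, a minimum of 500 counts, a prior count of 5 or a 2-fold limit. Pairs apart numbered 54 to 57 over the settings tried, but their sizes moved. The 56 with posterior mean TPM, and the 57 with counts not divided by length or protein-coding transcripts alone, used ranges without intervals. That rule is laxer, and a pair whose order turned could still count. Of the 54 pair ratios, 21 moved by over 1.5-fold with counts not divided by length, 9 with protein-coding transcripts alone and 3 with posterior mean TPM. The median coding share ran from 98.6% to 100%. With counts per 1000000 not divided by length, the log2 ratio turned to -0.11 for B4galt7 over Xylt2, -0.09 for B3gat3 over Xylt2, -0.05 for Gpc1 over Gpc6 and -0.38 for Gpc4 over Gpc6, since by construction that scale favours long transcripts. With protein-coding transcripts alone, an alternative chosen after seeing the data, Ugdh over Papss1 was -0.21, because transcripts that M21 does not list count as not coding. Xylt1, Gpc5, Ndst4 and Hs6st3, with 5 to 95 counts a library, were left out of the count of ratios between libraries. The design holds 2 libraries of 1 tissue and age, so spread between animals and change with stage were not measured.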
